A study of Mus musculus with 24 samples.

Results

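The 10 genes described here serve cholesterol efflux, the liver X receptors (LXRs) and oxysterols. They were taken by name from 38887 genes in a count table of bone marrow-derived dendritic cells of the mouse, cells that sample pathogens and prime T cells. All 10 were found, and all 10 passed the filter on low counts that left 14188 genes to test. The 24 samples formed 6 groups of 4 replicates. Cells labelled wild type (WT) for IRE1, the endoplasmic reticulum stress sensor encoded by Ern1 that activates XBP1, were left untreated, given zymosan (a yeast cell wall particle sensed by Dectin-1 and TLR2) or given lipopolysaccharide (LPS, a bacterial glycolipid sensed by TLR4). Cells labelled knockout (KO) for IRE1 had the same 3 conditions. The sample titles word the treatment as that of the mice, while it is described here as that of the cells. The labels give no strain, age, dose, stimulation time, allele or Cre driver, and do not state from how many mice or cultures the replicates came, so the p-values measure only the spread between these samples. By its title, the series asked how IRE1α-XBP1 signalling in leukocytes affects prostaglandin synthesis and pain.

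Total counts were 32223256 to 46927434 per sample. Levels below are CPM, counts relative to a library total that was scaled by the trimmed mean of M values. The level of Ern1 was no lower under the KO label: it was 40.2 to 43.3 CPM in WT and 48.2 to 54.6 CPM in KO untreated samples, and higher in KO in all 3 conditions (log2 differences of 0.31 ± 0.05, 0.31 ± 0.05 and 0.47 ± 0.05 SE). Whole-gene counts cannot show a deletion of single exons, so "KO" below means "labelled KO". The dendritic cell marker Itgax averaged 1051 to 1309 CPM over the groups and Zbtb46 15.03 to 25.4 CPM. Eosinophil markers differed by genotype: the summed level of 9 genes was 835 to 1270 CPM in WT samples and 47.6 to 62.3 CPM in KO samples. Replicates 1 and 2, and likewise 3 and 4, resembled each other more than other replicates of their group did, except in WT LPS samples. The chi-square per gene was 1.91 to 8.02 for the 12 such pairs and 6.55 to 23.7 for the 24 other pairs. In WT LPS samples, replicates 3 and 4 (8.02) were less alike than replicates 2 and 3 (6.55). Where summing each pair to 1 sample, which leaves 2 per group, ended a call of the 10 genes, that adjusted p is given beside it.

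The LXRs are nuclear receptors that are activated by oxysterols, the oxidised forms of cholesterol. They switch on genes that export cholesterol from the cell, such as the transporters ABCA1 and ABCG1 and the acceptor apolipoprotein E, and the ubiquitin ligase MYLIP (IDOL), which degrades the LDL receptor. Cholesterol that arrives with lipoproteins leaves the lysosome through NPC2 and NPC1, and SOAT1 esterifies the excess for storage in droplets. CH25H makes 25-hydroxycholesterol, an oxysterol that activates LXRs, restrains sterol synthesis and is formed by dendritic cells and macrophages exposed to microbial products or interferon.

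Promoters are printed for Abca1, the transporter with the highest level after zymosan, and Ch25h, the gene with the widest span between groups. Each is the 250 bases before the annotated start, from RefSeq (GRCm38.p6), on the minus strand, 5′ to 3′. Abca1 is chr4:53159896-53160145 and Ch25h is chr19:34475149-34475398.
Abca1: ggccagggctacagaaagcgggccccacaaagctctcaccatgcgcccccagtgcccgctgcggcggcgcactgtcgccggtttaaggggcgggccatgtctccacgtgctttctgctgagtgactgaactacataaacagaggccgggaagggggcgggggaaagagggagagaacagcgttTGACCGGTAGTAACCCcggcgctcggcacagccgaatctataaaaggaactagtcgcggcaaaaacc
Ch25h: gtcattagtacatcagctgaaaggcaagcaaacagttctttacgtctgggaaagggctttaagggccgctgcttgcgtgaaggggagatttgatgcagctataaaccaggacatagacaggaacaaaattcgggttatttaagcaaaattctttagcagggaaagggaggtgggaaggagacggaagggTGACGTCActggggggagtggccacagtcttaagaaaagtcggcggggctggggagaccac
Capitals in the Abca1 promoter mark a match, with 3 mismatches, to the LXR element (AGGTCA repeated after any 4 bases, called DR4), on the opposite strand, from position -67 counted from the start. Of 32851 windows of the same length (each also holding the first 50 transcribed bases), 21.9% had such a match, and the allowance of 3 was set after no gene described here matched with fewer. Capitals in the Ch25h promoter mark TGACGTCA, the cAMP response element, from position -61. It was present in 1.79% of windows and in no other of the 8 genes described here that have a window. The interferon-response core (GAAA repeated after any 2 bases, 3.44% of windows) was in none of the 8. Both strands were searched, and a match describes the letters only. No window was matched for Abcg1 or Npc1.

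**Figure D1:**
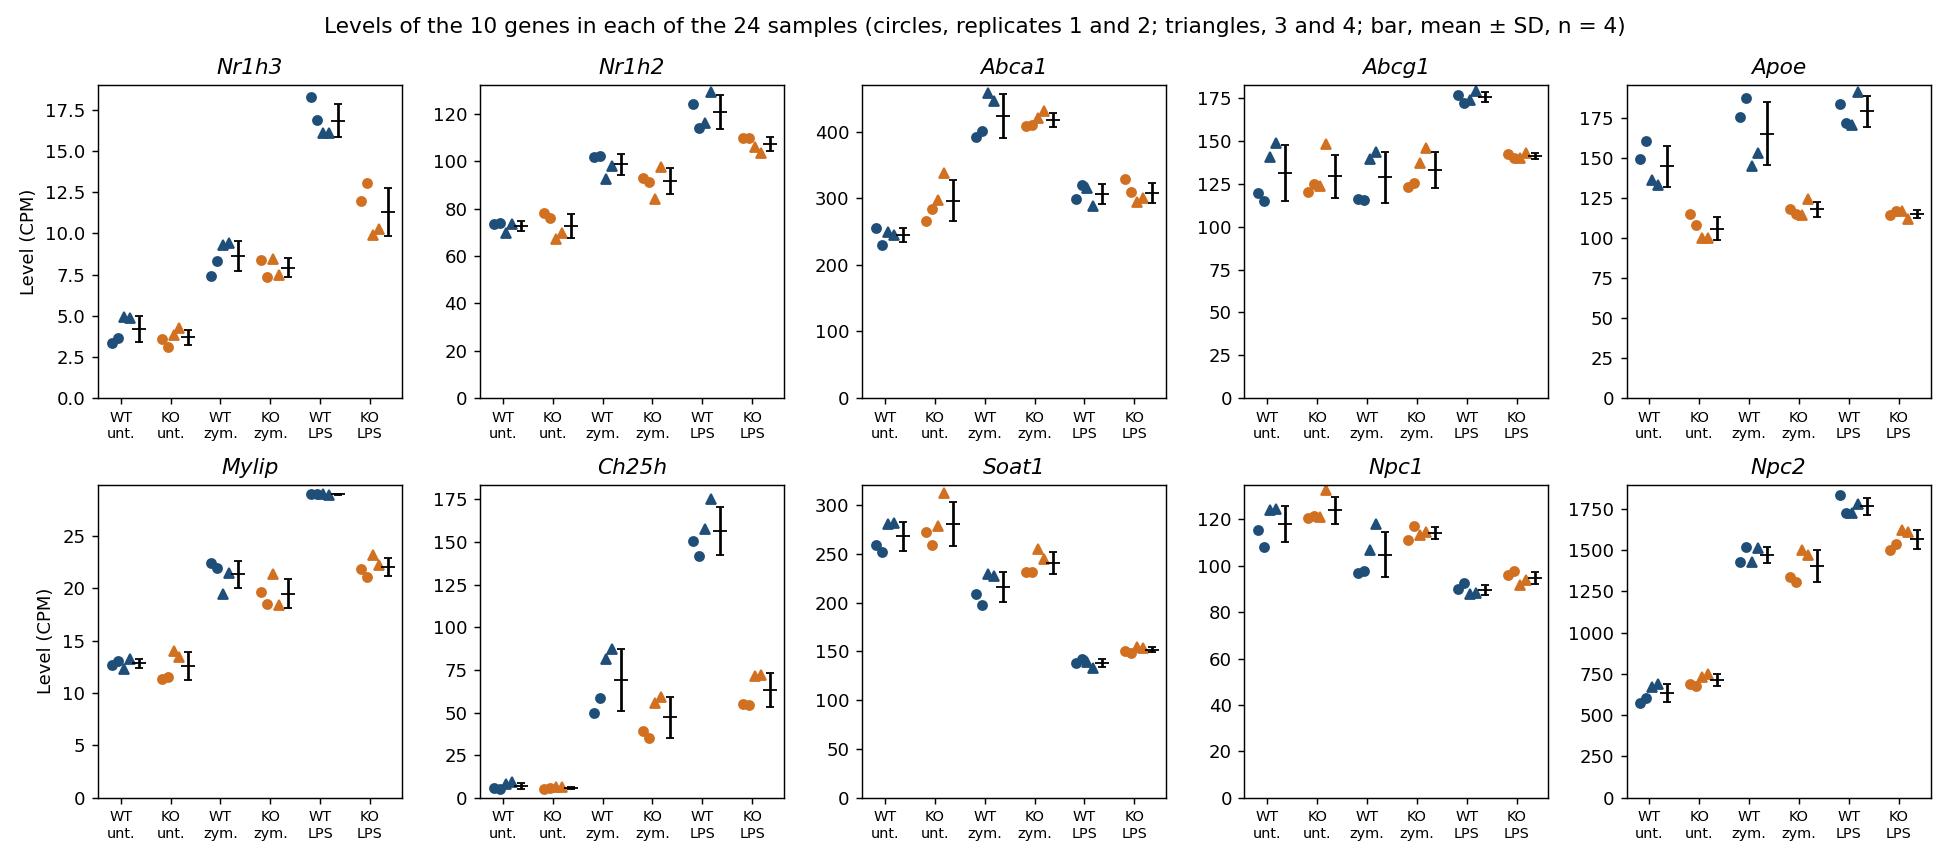
Levels of the 10 genes in each of the 24 samples (CPM, axes from 0). Circles are replicates 1 and 2, triangles are replicates 3 and 4, and bars show the mean ± SD of 4 samples. Ch25h ran from 5.07 CPM in a WT untreated sample to 175.1 CPM in a WT LPS sample, while Abcg1 group means stayed between 128.8 and 175.9 CPM.

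Within WT cells, 7 of the 10 genes were higher and 2 lower after zymosan (edgeR adjusted p under 0.05), against 34.3% of all tested genes called higher and 35.9% called lower (70.2% in either direction). After LPS, 8 were higher and 2 lower, against 35.9% and 39.7% of tested genes (75.6%). In KO cells, zymosan raised 7 and lowered 2 (31.6% and 35.2% of tested genes, 66.8% in all), and LPS raised 5 and lowered 2 (34.4% and 37.4%, 71.8% in all). The median log2 change of the 10 was 0.59, 0.58, 0.41 and 0.35 in these 4 comparisons, and that of all tested genes was -0.01, -0.04, -0.03 and -0.02. Since most tested genes were called in each, the share of calls alone says little about these genes. Each pair of stimulus responses within a genotype shares its untreated samples. In these bulk samples, fewer cells of a type and less RNA per cell cannot be told apart.

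Nr1h3 (ENSMUSG00000002108, GRCm38 chromosome 2, 91184061 to 91202834, minus strand) encodes LXRα, an LXR that macrophages and liver carry. It was at 3.36, 3.62, 4.91 and 4.85 CPM in WT untreated samples and at 3.60, 3.13, 3.82 and 4.23 CPM in KO untreated samples. After zymosan it was at 7.43, 8.34, 9.30 and 9.39 CPM in WT and 8.38, 7.36, 8.44 and 7.48 CPM in KO. After LPS it was at 18.3, 16.9, 16.1 and 16.1 CPM in WT and 11.96, 13.1, 9.90 and 10.3 CPM in KO. Every stimulated sample was above every untreated one, LPS samples were above zymosan samples, and WT LPS samples were above all others. LPS raised Nr1h3 4.02-fold in WT (log2 2.01 ± 0.11 SE, edgeR adjusted p = 1.73e-14) and 3.06-fold in KO (1.61 ± 0.12, adjusted p = 3.24e-12). Zymosan raised it 2.06-fold in WT and 2.14-fold in KO.

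Nr1h2 (ENSMUSG00000060601, chromosome 7, 44549616 to 44553951, minus strand) encodes LXRβ, the more widely expressed LXR. Its level was 73.3, 73.9, 69.5 and 73.5 CPM in WT untreated samples and 78.2, 75.9, 67.1 and 69.6 CPM in KO untreated samples. With zymosan these became 101.9, 102.0, 92.6 and 98.0 CPM in WT and 93.1, 91.3, 84.2 and 97.6 CPM in KO. With LPS they became 124.0, 114.0, 116.0 and 129.1 CPM in WT and 109.6, 109.8, 106.2 and 103.3 CPM in KO. The 3 conditions did not overlap within a genotype, and rose from untreated through zymosan to LPS. The LPS rise was 1.66-fold in WT (log2 0.74 ± 0.05, edgeR adjusted p = 2.07e-12) and 1.48-fold in KO (0.56 ± 0.05, adjusted p = 4.8e-10). Per kilobase of transcript, untreated WT cells held 36.3 ± 1.01 CPM of Nr1h2 and 2.14 ± 0.414 CPM of Nr1h3 (SD, n = 4). The level of Nr1h2 stayed above that of Nr1h3 in every sample.

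Abca1 (ENSMUSG00000015243, chromosome 4, 53030787 to 53159895, minus strand) encodes the transporter that loads cholesterol onto lipid-poor apolipoproteins. Its level was 255.1, 230.4, 249.7 and 245.4 CPM in WT untreated samples and 266.0, 283.2, 297.3 and 338.3 CPM in KO untreated samples. After zymosan it was 391.9, 400.2, 458.7 and 445.6 CPM in WT and 409.2, 410.2, 419.9 and 431.1 CPM in KO. After LPS it was 298.8, 320.3, 315.8 and 288.1 CPM in WT and 328.2, 310.0, 293.6 and 300.7 CPM in KO. Zymosan samples were the highest in both genotypes, and KO LPS samples overlapped KO untreated samples. Zymosan raised Abca1 1.73-fold in WT (log2 0.79 ± 0.06, edgeR adjusted p = 2.29e-11) and 1.41-fold in KO (0.50 ± 0.06, adjusted p = 1.18e-07). The LPS change was 0.32 ± 0.06 in WT (adjusted p = 5.06e-05) and 0.06 ± 0.06 in KO, which did not pass the test (adjusted p = 0.416).

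Abcg1 (ENSMUSG00000024030, chromosome 17, 31057675 to 31117988, plus strand) encodes the transporter that moves cholesterol to high-density lipoprotein. WT untreated samples had 120.0, 115.0, 140.8 and 149.1 CPM, and KO untreated samples had 120.6, 125.3, 123.8 and 148.1 CPM. Zymosan samples had 116.4, 115.5, 139.7 and 143.7 CPM in WT and 123.3, 125.8, 137.4 and 146.1 CPM in KO. LPS samples had 177.2, 172.6, 174.1 and 179.6 CPM in WT and 142.6, 140.2, 140.1 and 143.4 CPM in KO. The 4 WT LPS samples stood above all the other 20 samples, which overlapped one another. Abcg1 rose 1.34-fold with LPS in WT (log2 0.42 ± 0.08, edgeR adjusted p = 3.98e-05). The changes with zymosan (-0.03 ± 0.08 in WT, 0.04 ± 0.08 in KO) and with LPS in KO (0.13 ± 0.08, adjusted p = 0.152) did not pass the test. The last was called without KO untreated replicate 4 (0.20, adjusted p = 0.0308), and not with pairs summed (adjusted p = 0.381).

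Apoe (ENSMUSG00000002985, chromosome 7, 19696109 to 19699188, minus strand) encodes apolipoprotein E, a secreted acceptor of exported cholesterol and a known macrophage product. WT untreated samples had 149.3, 160.5, 136.0 and 133.0 CPM, and KO untreated samples had 114.8, 108.1, 100.1 and 99.9 CPM. Zymosan samples had 175.8, 187.2, 144.9 and 153.0 CPM in WT and 118.3, 114.7, 114.3 and 124.5 CPM in KO. LPS samples had 183.5, 171.8, 170.5 and 191.0 CPM in WT and 114.4, 116.8, 116.7 and 111.6 CPM in KO. Every KO sample, whatever its condition, was below every WT sample. LPS raised Apoe 1.24-fold in WT (log2 0.31 ± 0.07, edgeR adjusted p = 0.000252) and the KO change of 0.12 ± 0.07 did not pass the test (adjusted p = 0.123). The zymosan calls were weak. In WT the change was 0.19 ± 0.07 (adjusted p = 0.0154), with adjusted p from 0.0548 to 0.0994 when WT untreated replicate 3 or 4 or WT zymosan replicate 1 or 2 was left out and 0.104 with pairs summed. In KO it was 0.16 ± 0.07 (adjusted p = 0.0463), with adjusted p = 0.0556, 0.123 and 0.126 without KO untreated replicate 2, 3 or 4, adjusted p = 0.0741 and 0.127 without KO zymosan replicate 1 or 4, and 0.186 with pairs summed.

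Mylip (ENSMUSG00000038175, chromosome 13, 45389742 to 45412022, plus strand) encodes the LXR-induced ligase that limits lipoprotein uptake. Its WT untreated samples were at 12.7, 13.1, 12.3 and 13.3 CPM and its KO untreated samples at 11.3, 11.5, 13.97 and 13.5 CPM. Its zymosan samples were at 22.4, 22.0, 19.5 and 21.5 CPM in WT and 19.6, 18.5, 21.4 and 18.4 CPM in KO. Its LPS samples were at 28.99, 28.97, 28.97 and 28.91 CPM in WT and 21.8, 21.0, 23.1 and 22.2 CPM in KO. Stimulated samples lay above untreated ones without overlap, and the WT LPS samples lay above all others within 0.1 CPM of each other. LPS raised Mylip 2.25-fold in WT (log2 1.17 ± 0.06, edgeR adjusted p = 5.34e-15) and 1.75-fold in KO (0.81 ± 0.06, adjusted p = 1.36e-11). Zymosan raised it 1.66-fold in WT and 1.55-fold in KO.

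Ch25h (ENSMUSG00000050370, chromosome 19, 34473778 to 34475164, minus strand) is the gene for cholesterol 25-hydroxylase. Untreated samples held 5.53, 5.07, 7.85 and 9.08 CPM in WT and 5.28, 5.45, 6.22 and 6.49 CPM in KO. Zymosan samples held 49.7, 58.2, 81.7 and 87.5 CPM in WT and 38.9, 35.0, 55.7 and 59.1 CPM in KO. LPS samples held 150.7, 141.7, 157.6 and 175.1 CPM in WT and 54.9, 54.3, 71.5 and 72.3 CPM in KO. WT LPS samples were the highest of all, and the KO LPS samples overlapped the zymosan samples of both genotypes. LPS raised Ch25h 22.6-fold in WT (log2 4.50 ± 0.20, edgeR adjusted p = 2.48e-16) and 10.8-fold in KO (3.43 ± 0.20, adjusted p = 7.89e-14). The zymosan rise was 3.33 ± 0.20 in WT (adjusted p = 1.33e-13) and 3.00 ± 0.20 in KO (adjusted p = 2.09e-12), or 8.03-fold in KO. In all 6 groups, the mean of replicates 3 and 4 was above that of replicates 1 and 2, by 0.18 to 0.67 on the log2 scale. An opposite-strand non-coding gene, Gm26902, shares 159 exonic bases with Ch25h and had 2159 counts over the 24 samples against 52358 for Ch25h. Whether the counting used strand is not given in the sources used here.

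Npc2 (ENSMUSG00000021242, chromosome 12, 84754562 to 84773152, minus strand) encodes the soluble lysosomal protein that hands cholesterol to NPC1. Untreated samples were at 572.7, 601.2, 671.3 and 687.1 CPM in WT and 686.8, 674.4, 732.9 and 751.1 CPM in KO. Zymosan samples were at 1428, 1515, 1427 and 1510 CPM in WT and 1335, 1308, 1498 and 1468 CPM in KO. LPS samples were at 1832, 1723, 1726 and 1779 CPM in WT and 1498, 1536, 1619 and 1606 CPM in KO. All stimulated samples were above all untreated ones, and WT LPS samples were above the rest. LPS raised Npc2 2.79-fold in WT (log2 1.48 ± 0.06, edgeR adjusted p = 8.65e-18) and 2.20-fold in KO (1.14 ± 0.06, adjusted p = 2.33e-15). Zymosan raised it 2.32-fold in WT and 1.97-fold in KO.

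Npc1 (ENSMUSG00000024413, chromosome 18, 12189692 to 12236400, minus strand) encodes the lysosomal membrane protein that NPC2 works with, and it moved the other way. Untreated samples were at 115.3, 108.1, 124.0 and 124.4 CPM in WT and 120.6, 121.3, 121.1 and 132.7 CPM in KO. Zymosan samples were at 96.9, 97.8, 106.9 and 117.8 CPM in WT and 111.1, 117.2, 113.2 and 114.4 CPM in KO. LPS samples were at 90.0, 92.6, 87.9 and 88.3 CPM in WT and 95.9, 97.8, 91.5 and 93.7 CPM in KO. LPS samples were below untreated ones without overlap in both genotypes, and WT zymosan samples overlapped WT untreated ones. Npc1 was 1.32-fold lower with LPS in WT (log2 -0.40 ± 0.05, edgeR adjusted p = 2.83e-07) and 1.31-fold lower in KO (-0.39 ± 0.05, adjusted p = 4.32e-07). The smaller zymosan falls were 0.17 ± 0.05 in WT (adjusted p = 0.00622, or 0.0912 with pairs summed) and 0.12 ± 0.05 in KO (adjusted p = 0.0472). The KO call was lost with pairs summed (adjusted p = 0.204), with DESeq2 (adjusted p = 0.082), and without KO untreated replicate 2, 3 or 4 or KO zymosan replicate 1, 3 or 4 (adjusted p from 0.0504 to 0.173). The opposite-strand gene Rmc1 shares 511 exonic bases with Npc1 and had 63371 counts against 107266.

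Soat1 (ENSMUSG00000026600, chromosome 1, 156424525 to 156474331, minus strand) encodes the enzyme that esterifies cholesterol for storage. Untreated samples were at 258.8, 251.8, 280.3 and 281.1 CPM in WT and 271.8, 258.5, 278.3 and 311.8 CPM in KO. Zymosan samples were at 208.3, 197.4, 229.5 and 227.4 CPM in WT and 231.2, 231.0, 254.8 and 244.4 CPM in KO. LPS samples were at 137.6, 142.4, 139.0 and 133.2 CPM in WT and 150.5, 148.5, 154.1 and 153.0 CPM in KO. The 3 conditions fell into separate, descending ranges within each genotype. With LPS the level was 1.94-fold lower in WT (log2 -0.96 ± 0.06, edgeR adjusted p = 3.44e-14) and 1.85-fold lower in KO (-0.89 ± 0.06, adjusted p = 2.09e-13). With zymosan it was 1.24-fold lower in WT (-0.31 ± 0.06, adjusted p = 1.59e-05) and 1.17-fold lower in KO (-0.22 ± 0.06, adjusted p = 0.00096).

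**Figure D2:**
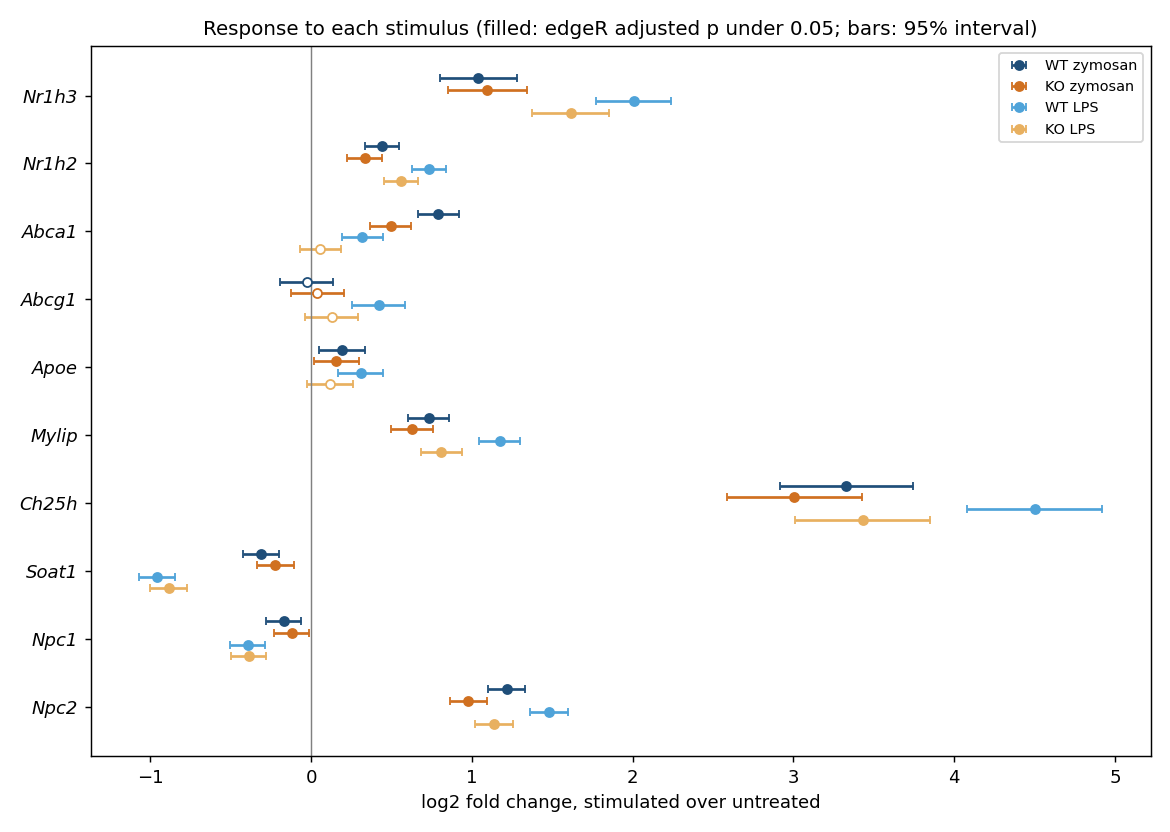
Response of each gene to each stimulus, as the log2 fold change over untreated samples of the same genotype, with its 95% interval (n = 4 per group). Filled points passed the edgeR test. Ch25h had changes between 3.00 and 4.50, Soat1 and Npc1 lay below 0, and Abcg1 passed only with LPS in WT.

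The stimuli were also compared directly. In WT cells, 3 of the 10 genes were higher with zymosan than with LPS and 6 were lower, against 24.5% and 21.9% of tested genes (46.4% in either direction). In KO cells 3 were higher and 4 lower, against 22.7% and 20% of tested genes (42.7%). Abca1 was higher with zymosan in both genotypes, by 0.47 ± 0.06 in WT (edgeR adjusted p = 7.9e-07) and 0.44 ± 0.06 in KO (adjusted p = 2.84e-06), as were Soat1 (0.64 ± 0.06 and 0.66 ± 0.06) and Npc1 (0.22 ± 0.05 and 0.27 ± 0.05). For Soat1 and Npc1 this was a smaller fall, and for Abca1 a larger rise. Nr1h3 was lower with zymosan than with LPS by -0.96 ± 0.11 in WT and -0.52 ± 0.11 in KO. Nr1h2, Mylip and Npc2 were lower in both genotypes, with differences of -0.44 to -0.16. The KO calls of Mylip and Npc2 were lost with pairs summed (adjusted p = 0.145 and 0.230). Without KO zymosan replicate 2 or 4 or KO LPS replicate 3, adjusted p was 0.0659 to 0.0703 for Mylip. Without KO zymosan replicate 1 or 2 or KO LPS replicate 3 or 4, adjusted p was 0.063 to 0.0978 for Npc2. Ch25h was lower with zymosan in WT (-1.17 ± 0.17, adjusted p = 3.54e-06), as was Abcg1 (-0.45 ± 0.08, adjusted p = 5.44e-05). In KO the Ch25h difference was -0.42 ± 0.17 (adjusted p = 0.0508). It was called with DESeq2 size factors, with no filter and with only the groups compared (adjusted p = 0.0455, 0.0316 and 0.048). Leaving out KO zymosan replicate 3 or 4 or KO LPS replicate 1 or 2 also gave a call (0.0184 to 0.039). With a block for replicate number or a term for replicate pair, adjusted p was 0.000114 and 7.9e-05. With pairs summed it was 0.277. The Apoe difference did not pass in either genotype, but in WT it went from -0.12 to -0.18 (adjusted p = 0.031) without WT zymosan replicate 2.

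Genotype was compared within each condition. Among untreated samples, 1 of the 10 genes was higher in KO and 1 lower, against 4.31% and 5.64% of tested genes (9.95% in either direction). After zymosan 1 was higher and 2 were lower, against 10.6% and 11.4% (22.1%). After LPS none was higher and 7 were lower, against 15.6% and 18.2% (33.9%). At an unadjusted p under 0.05, 1 gene (Soat1) was higher with LPS, against 20.5% of tested genes, and DESeq2 also called none higher. Soat1 was called higher with only the groups compared, a block for replicate number or a term for replicate pair (edgeR adjusted p = 0.00869, 0.0191 and 0.0143). After LPS the WT and KO samples did not overlap for 8 of the 10 genes, all except Abca1 and Npc1, and for 34.4% of tested genes. The median log2 difference of the 10 genes was -0.01, -0.09 and -0.24 in the 3 conditions, and that of all tested genes 0.00, 0.00 and 0.01.

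Apoe was lower in KO in every condition: 1.37-fold untreated (log2 -0.45 ± 0.07, edgeR adjusted p = 3.99e-05), 1.40-fold with zymosan (-0.49 ± 0.07, adjusted p = 9.96e-06) and 1.56-fold with LPS (-0.64 ± 0.07, adjusted p = 1.15e-07). These calls held with pairs summed (adjusted p = 0.0325, 0.0136 and 0.00218). Abca1 was the gene higher in untreated KO cells, 1.21-fold (0.27 ± 0.06, adjusted p = 0.00356), with no overlap between the genotypes, but adjusted p was 0.153 with pairs summed. After stimulation its differences were -0.02 ± 0.06 and 0.01 ± 0.06. The untreated Npc2 difference (0.17 ± 0.06, adjusted p = 0.0589) did not pass in edgeR, but did with DESeq2 (adjusted p = 0.0386) and without WT untreated replicate 3 (0.0408) or 4 (0.021).

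With LPS, Ch25h was 2.47-fold lower in KO (log2 -1.31 ± 0.17, edgeR adjusted p = 2.25e-06, or 0.00842 with pairs summed). Nr1h3 was 1.49-fold lower (-0.57 ± 0.10, adjusted p = 0.000135) and Mylip 1.31-fold lower (-0.39 ± 0.06, adjusted p = 1.88e-05, or 0.0117 with pairs summed). Abcg1 was 1.24-fold lower (-0.31 ± 0.08, adjusted p = 0.0037), Npc2 1.13-fold (-0.17 ± 0.06, adjusted p = 0.018) and Nr1h2 1.13-fold (-0.17 ± 0.05, adjusted p = 0.0122). With pairs summed, adjusted p was 0.0993 for Abcg1, 0.225 for Npc2 and 0.123 for Nr1h2. The Npc2 call was also lost without WT LPS replicate 1 (adjusted p = 0.0561), and the Nr1h2 call without WT LPS replicate 4 (adjusted p = 0.0593).

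With zymosan, Ch25h was 1.47-fold lower in KO (-0.56 ± 0.17, edgeR adjusted p = 0.0216) and Soat1 1.11-fold higher (0.16 ± 0.06, adjusted p = 0.0427). Both calls were lost with pairs summed (adjusted p = 0.254 and 0.329). That of Ch25h was lost without WT zymosan replicate 3 or 4 or KO zymosan replicate 1 or 2 (adjusted p from 0.0736 to 0.099). That of Soat1 was lost without WT zymosan replicate 1 or 2 or KO zymosan replicate 3 or 4 (adjusted p from 0.0845 to 0.163). Npc1 did not pass in any condition (0.07, 0.12 and 0.08, each ± 0.05), but its zymosan difference was 0.18 (adjusted p = 0.0114) without WT zymosan replicate 4.

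**Figure D3:**
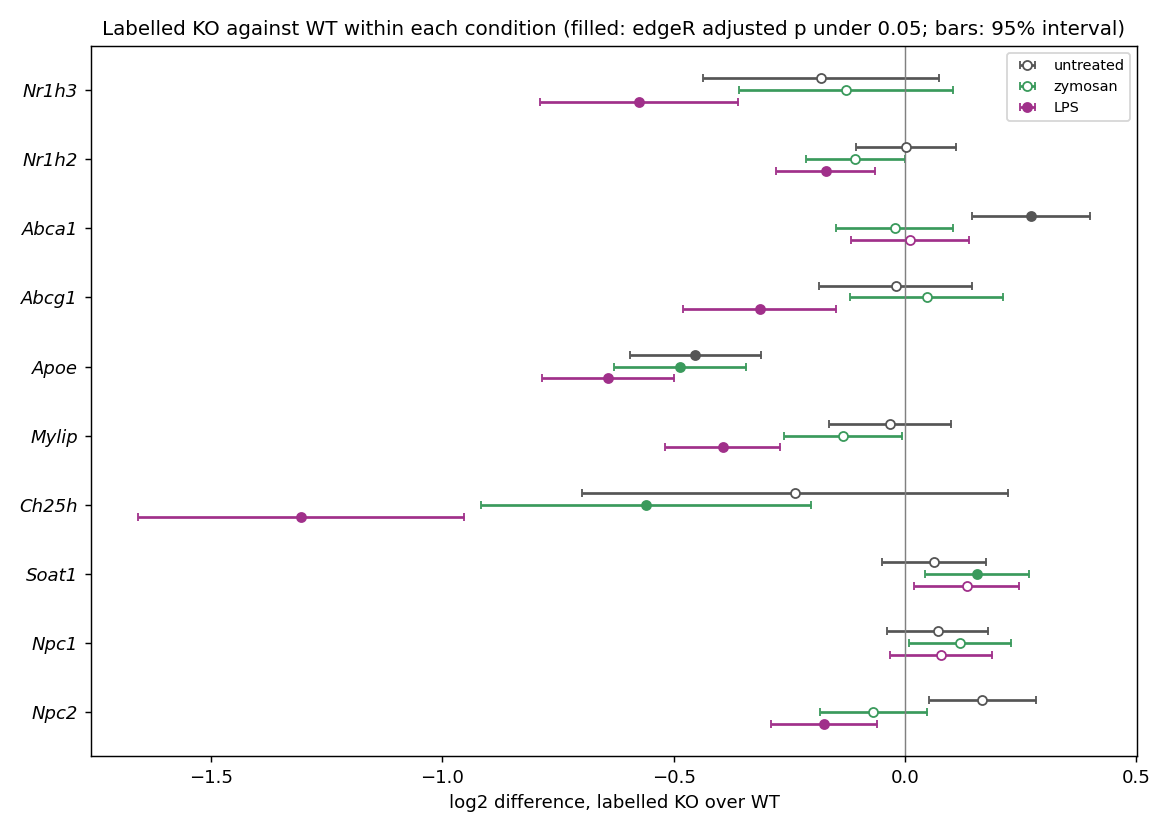
Difference between genotypes for each gene, as log2 of KO over WT within each condition, with its 95% interval (n = 4 per group). Filled points passed the edgeR test. Apoe lies below 0 in all 3 conditions, and Ch25h, Nr1h3 and Mylip are lowest with LPS.

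Markers of other cell types moved with genotype beside these differences. The summed level of 9 macrophage markers was 1750 to 1960 CPM in WT and 1690 to 1930 CPM in KO untreated samples, 1940 to 2120 CPM in WT against 1690 to 1880 CPM in KO zymosan samples, and 2260 to 2360 CPM in WT against 1640 to 1670 CPM in KO LPS samples. Of the 8 that were tested, 2, 4 and 7 were lower in KO in these conditions, and 1 was higher with zymosan. Over all tested genes, 5.64%, 11.4% and 18.2% were called lower in KO in the 3 conditions. Those called higher were 4.31%, 10.6% and 15.6%, and these shares stand beside every marker count given here. Of 8 tested eosinophil markers, 7, 7 and 8 were lower, and Epx averaged 187.3 CPM in WT and 0.755 CPM in KO untreated samples. The summed level of 12 dendritic cell markers was 5140 to 5350 CPM in WT and 6220 to 6480 CPM in KO untreated samples, and 6500 to 7080 and 7090 to 7500 CPM with LPS, where 5 were higher and 3 lower in KO. With LPS, the summed level of 9 neutrophil markers was 1030 to 1090 CPM in WT and 1350 to 1510 CPM in KO (4 higher and 3 lower), and that of 5 plasmacytoid dendritic cell markers was 965 to 1090 and 741 to 766 CPM (1 of 4 tested lower). With zymosan, the dendritic cell sum was 6230 to 6490 CPM in WT and 7350 to 7880 CPM in KO (6 higher and 3 lower). The plasmacytoid sum was 684 to 739 and 558 to 624 CPM (1 higher and 1 lower), and the neutrophil ranges overlapped (none higher and 3 lower). The sum of 6 mast cell and basophil markers was 110 to 165 and 86 to 95.5 CPM with zymosan (1 higher and 1 lower). With LPS it was 224 to 246 and 180 to 207 CPM (2 higher and 1 lower). The untreated ranges of the neutrophil, plasmacytoid and mast cell lists overlapped between genotypes, though single markers were called. In untreated KO samples, 4 of 9 neutrophil and 2 of 6 mast cell and basophil markers were lower and none higher. Of 4 tested plasmacytoid markers, 2 were higher and none lower. The plasmacytoid and mast cell sums also changed with stimulus, in WT from medians of 157 and 32.1 CPM untreated to 986 and 230 CPM with LPS. With LPS the mast cell sum was lower in KO, while the median log2 difference of the 6 genes was 0.34. The part of all these cell types in the differences of Apoe, Nr1h3 and the other genes was not tested.

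Whether the response itself differed between genotypes was tested as an interaction. For LPS, 3 of the 10 genes responded less in KO and none responded more, against 5.84% and 4.61% of tested genes (10.4% in either direction). They were Ch25h (log2 -1.07 ± 0.28, edgeR adjusted p = 0.0155), Mylip (-0.36 ± 0.09, adjusted p = 0.00914) and Npc2 (-0.34 ± 0.08, adjusted p = 0.00687). DESeq2 called 4 lower, adding Abca1, and none higher, against 8.69% and 5.93% of the genes it tested. At an unadjusted p under 0.05, 7 were lower and none higher, against 13.5% and 11.9% of tested genes. With pairs summed these 3 calls were lost (adjusted p = 0.310, 0.288 and 0.310), in a fit that called 5 genes of the whole table. Fits on a single pair hold only the closer spread within that pair, so their adjusted p-values do not measure the spread between pairs. Within replicates 1 and 2 alone the Ch25h value was -1.44 (adjusted p = 1.14e-06) and within 3 and 4 alone it was -0.80 (adjusted p = 0.000327). The same 2 values were -0.26 (adjusted p = 0.0278) and -0.46 (adjusted p = 0.00942) for Mylip, and -0.44 (adjusted p = 3.47e-05) and -0.25 (adjusted p = 0.0107) for Npc2.

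Abca1 (-0.26 ± 0.09, edgeR adjusted p = 0.0549), Abcg1 (-0.29 ± 0.11, adjusted p = 0.0996), Nr1h2 (-0.17 ± 0.07, adjusted p = 0.134), Nr1h3 (-0.39 ± 0.16, adjusted p = 0.124) and Apoe (-0.19 ± 0.10, adjusted p = 0.226) did not pass for LPS. The LPS response of Apoe, which passed in WT and not in KO, was thus not shown to differ. For Abca1 and Abcg1, whose responses also passed only in WT, the interaction rested on the setting. For Abca1 it was called with DESeq2 (adjusted p = 0.02), with its size factors (0.0446) and without KO untreated replicate 1 or 2 or KO LPS replicate 1 (0.0201, 0.0486 and 0.0376), and for Abcg1 without WT untreated replicate 4 (0.0367). With pairs summed neither was called (0.414 and 0.506). Npc1 (0.01 ± 0.08) and Soat1 (0.07 ± 0.08) had 95% intervals of -0.15 to 0.16 and -0.09 to 0.23. For zymosan, edgeR called none of the 10, against 0.973% of tested genes higher and 0.846% lower (1.82% in either direction). At an unadjusted p under 0.05, 2 were lower and none higher, against 6.15% and 6.92% of tested genes. DESeq2 called 1 lower, Abca1 (-0.30, adjusted p = 0.0263), against 1.65% of the genes it tested. Without WT zymosan replicate 1 or KO untreated replicate 1, edgeR called Abca1 too (adjusted p = 0.0468 and 0.0366).

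The order of levels between genes was read per kilobase of principal transcript. In WT untreated cells Npc2 was highest (192 ± 16.6 CPM per kb, SD, n = 4), then Apoe (103 ± 9.02) and Nr1h2 (36.3 ± 1.01). Soat1 (30.1 to 33.6), Abca1 (23.9 ± 1.03), Npc1 (22.6 ± 1.49) and Abcg1 (22.5 ± 2.80) came next, and the last 3 overlapped one another. Ch25h (4.96 ± 1.37), Mylip (4.19 ± 0.148) and Nr1h3 (2.14 ± 0.414) were lowest, with Ch25h and Mylip overlapping. In WT LPS cells Ch25h reached 113 ± 10.2 CPM per kb and its samples overlapped those of Apoe (127 ± 6.96). Npc2 remained highest at 535 ± 15.6, and Soat1 (16.5 ± 0.455) stood beside Npc1 (17.2 ± 0.406) with overlapping samples. In KO LPS cells Ch25h was at 45.6 ± 7.20 CPM per kb, below Nr1h2 (53.6 ± 1.55), whose samples it overlapped, and above Abca1 (30.0 ± 1.46).

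Across the 24 samples the genes fell into several patterns, given here as Pearson correlations of log2 CPM, which describe shared group structure and are not tests. Ch25h, Mylip, Nr1h3, Nr1h2 and Npc2 ran together, from 0.917 (Nr1h2 with Npc2) to 0.978 (Ch25h with Npc2). Soat1 and Npc1 ran together (0.949) and opposite to them (Ch25h with Soat1, -0.805; Npc1 with Npc2, -0.758). The transporters Abca1 and Abcg1 did not track each other (-0.047), nor did Abca1 and Apoe (0.000). For 6 of the 10, the gene with the most similar profile was sought among the tested genes that had a symbol. Those with provisional names (such as Gm or Rik) or pseudogene names were left out. It was Rps6ka2 for Abca1 (0.956), F7 for Abcg1 (0.915), Cox15 for Nr1h3 (0.984), Trabd for Apoe (0.954), Cwc15 for Mylip (0.988) and P2ry14 for Ch25h (0.995).

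**Figure D4:**
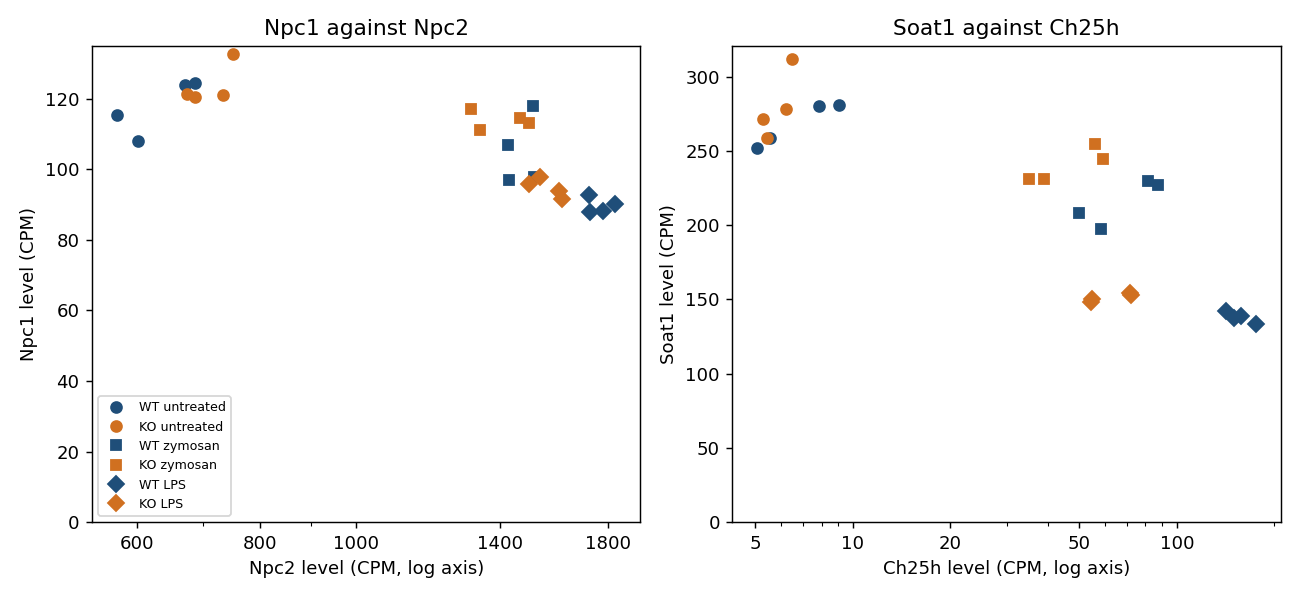
Npc1 level against Npc2 level (left) and Soat1 level against Ch25h level (right) in the 24 samples, in CPM with a log horizontal axis. Colours mark the genotype and shapes the condition. Stimulated samples lie to the right of untreated ones, and LPS samples lie lower than untreated ones. Zymosan and untreated samples overlap vertically over both genotypes, but within a genotype only for Npc1 in WT. With Soat1 at 133.2 to 154.1 CPM, the WT LPS samples have 141.7 to 175.1 CPM of Ch25h and KO LPS samples 54.3 to 72.3 CPM.

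Other genes of the pathway were read from lists. Their counts stand beside the shares of all tested genes called higher and lower. In KO these were 31.6% and 35.2% with zymosan, and 34.4% and 37.4% with LPS. In WT they were 34.3% and 35.9% with zymosan, and 35.9% and 39.7% with LPS. Of 10 tested further LXR targets, 3 rose and 4 fell with zymosan in WT, and 4 rose and 4 fell with LPS (median log2 change -0.10 and -0.02), near those shares. Mertk, a receptor for engulfing dead cells that is also on the macrophage list, rose by 1.31 ± 0.09 and 1.80 ± 0.09. The fatty acid synthesis genes Fasn (-1.52 ± 0.07 and -1.97 ± 0.07) and Scd1 (-1.07 ± 0.07 and -1.63 ± 0.07) fell. Srebf1, which encodes a master regulator of fatty acid synthesis, passed in no comparison. In KO, Apoc2, which activates lipoprotein lipase, was lower in all 3 conditions (-0.40, -0.49 and -0.54; the untreated call was lost with pairs summed, adjusted p = 0.0833), and Mertk was lower with LPS (-0.42 ± 0.09, adjusted p = 0.000507, or 0.05 with pairs summed).

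Of 6 tested oxysterol enzymes, receptors and binding proteins, 4 fell with zymosan in WT and the other two did not pass the test, and with LPS 1 rose and 5 fell. Gpr183, the receptor that guides cells along oxysterol gradients, fell from 31.5 ± 0.831 CPM untreated to 25.3 ± 3.11 with zymosan and 21.7 ± 1.46 with LPS (log2 -0.32 ± 0.07 and -0.54 ± 0.07). Cyp27a1, a sterol 27-hydroxylase, was the gene that rose with LPS (0.30 ± 0.10). Cyp7b1, which makes the ligand of that receptor from the product of CH25H, averaged at most 0.131 CPM in any group and was not tested. Among the LXR partners and coregulators, 2 of 7 tested genes rose and 3 fell in each of the 4 stimulus comparisons, with the receptor Rxra falling by 0.55 ± 0.09 and 0.67 ± 0.09 in WT and the coactivator Ncoa1 rising by 0.42 ± 0.07 and 0.73 ± 0.07.

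Of 11 genes of lipoprotein uptake and lysosomal cholesterol release, 6 rose and 3 fell with zymosan in WT, and 5 rose and 5 fell with LPS, while 70.2% and 75.6% of tested genes were called in either direction. Stard3, a late endosomal cholesterol carrier, rose by 1.35 ± 0.05 and 1.85 ± 0.05, and Olr1, a receptor for oxidised lipoprotein, 2.83-fold and 2.66-fold. Scarb1, the high-density lipoprotein receptor, changed by -0.88 ± 0.07 and -1.19 ± 0.07. Vldlr, another target of MYLIP, was higher in KO in all 3 conditions (0.80 ± 0.14, 0.93 ± 0.14 and 1.47 ± 0.15), with the untreated call lost with pairs summed (adjusted p = 0.0652). Among 4 tested storage genes, the ester hydrolase gene Nceh1 fell (-1.23 ± 0.08 and -1.63 ± 0.08) and the droplet coat gene Plin2 rose (0.65 ± 0.05 and 0.84 ± 0.05).

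Of 16 tested genes of sterol sensing and synthesis, 5 rose and 8 fell with zymosan in WT, and 3 rose and 11 fell with LPS (median -0.08 and -0.26). In KO, 7 rose and 7 fell with zymosan, against 31.6% and 35.2% of tested genes. With LPS in KO, 6 rose and 6 fell, against 34.4% and 37.4%. Dhcr7, an enzyme of the last steps of cholesterol synthesis, fell the most of the list in WT (-2.61 ± 0.09 and -3.06 ± 0.10). With LPS, 9 were higher in KO than in WT and 1 was lower, against 15.6% and 18.2% of tested genes, and with pairs summed 3 were higher and 1 lower. The LPS interaction was higher for 10, against 4.61% of tested genes, while 6 did not pass (median 0.29, all tested genes 0.00). With pairs summed, none of the 10 was called. The Dhcr7 interaction was 0.66 ± 0.14 (adjusted p = 0.00388, or 0.22 with pairs summed), opposite in sign to that of Ch25h.

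**Figure D5:**
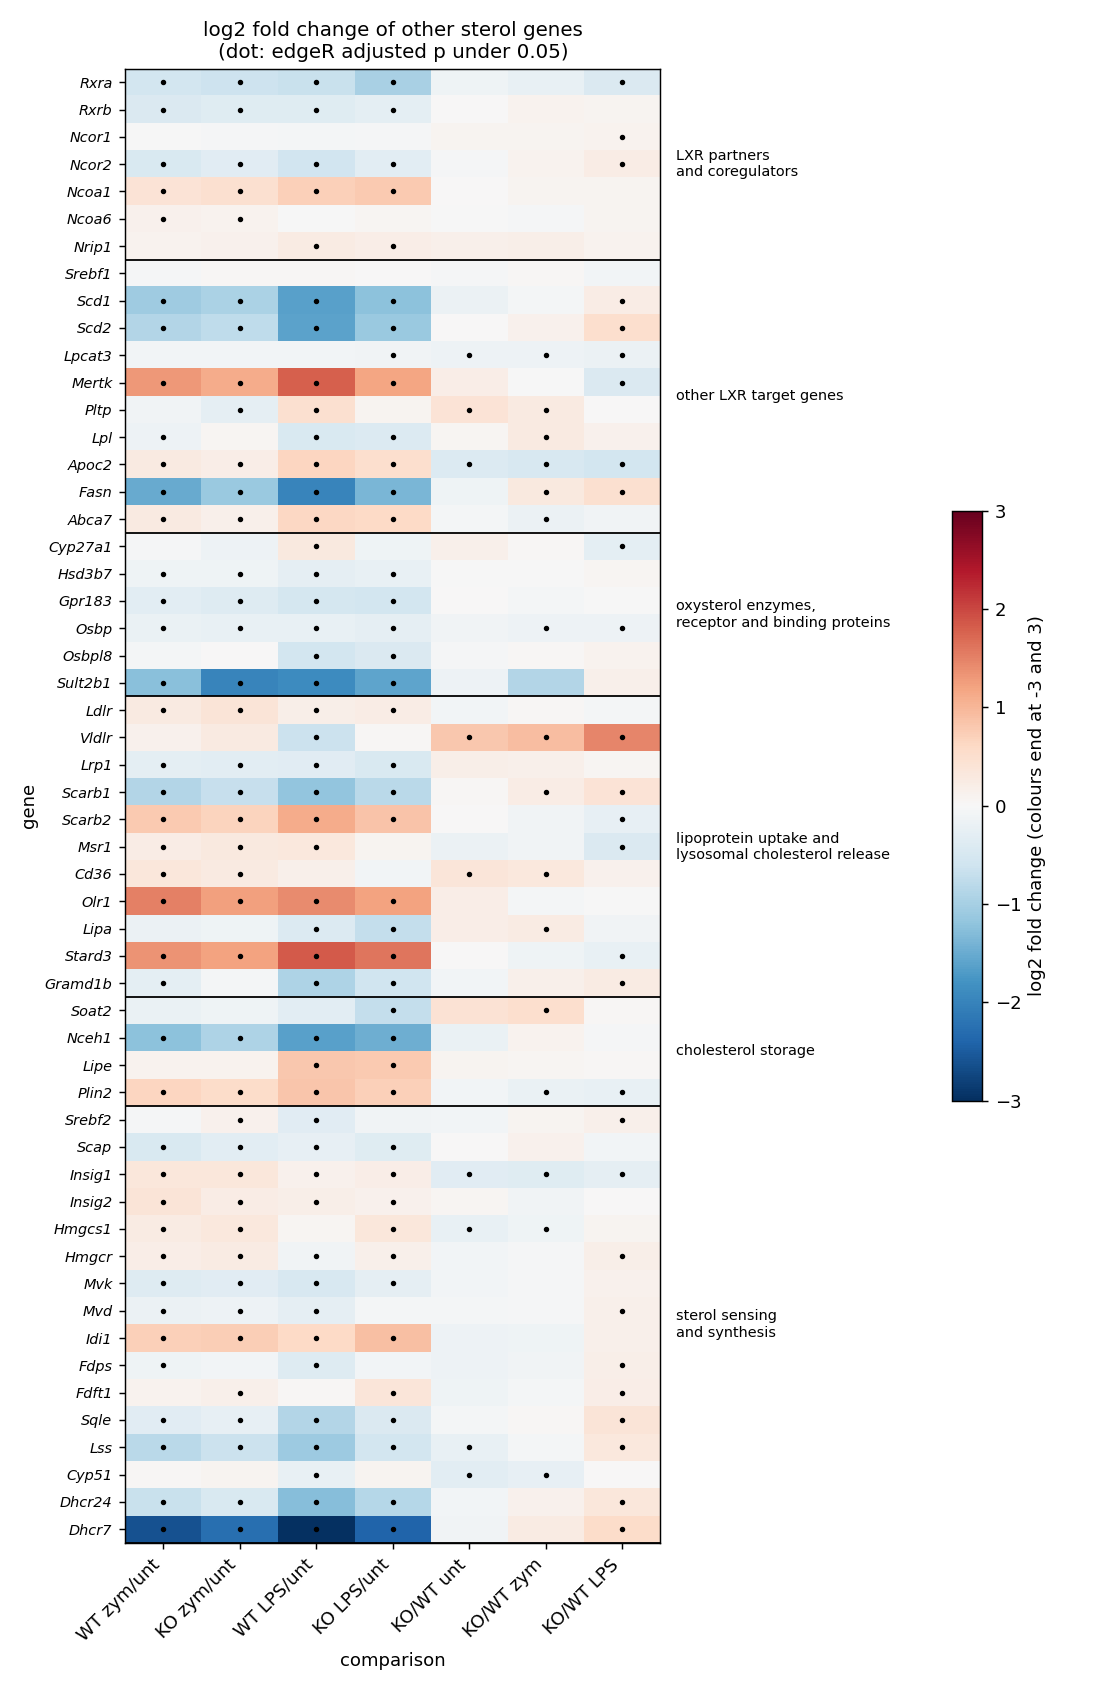
Log2 fold change of the tested genes of 6 other sterol lists in 7 comparisons (columns), with colours from -3 to 3 and a dot where the edgeR adjusted p was under 0.05. Fasn, Scd1, Nceh1 and Dhcr7 are blue after either stimulus, Mertk and Stard3 are red, and Vldlr is red in the KO against WT columns.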

How the data were processed

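The deposited file gives whole-number counts per gene for 24 samples, made by the authors with Bowtie2, RSEM 1.2.31 and DESeq2 on build mm10, per the submitters' processing notes, which give no roles. RSEM shares reads among similar genes. The plan expected fractional counts; these were whole and used unchanged. GENCODE M21 (GRCm38) named 37570 of 38887 genes (96.6%). Samples were grouped by their labels. The 10 genes and the lists were chosen with earlier results of these data known.

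One edgeR 4.0.16 quasi-likelihood model (R 4.3.3), with 1 coefficient for each of the 6 groups, used the 14188 genes left by filterByExpr, with normalization factors of 0.880 to 1.19. The 11 contrasts were adjusted by Benjamini-Hochberg over all tested genes and called under 0.05. Log2 CPM used a prior count of 2. Named genes were the 10, called members of each list with the largest changes, the most correlated gene, and Ern1. The other pathway, marker and overlapping genes named were chosen after their values were seen. Alternatives were DESeq2 1.42.0, its size factors, no filter, only the groups compared, the replicate number as a block, summed replicate pairs and leaving out each sample; each pair alone and a pair term were chosen after seeing the data. Scripts were tested on simulated data.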

Additional observations from a re-analysis of the deposited data

Results flagged for a closer look

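In groups of 4 samples, 3 of 60 sets of values had 1 sample whose distance from the next, divided by the group's range, reached 0.829 or more, where chance flags about 1 in 20. Abcg1 was at 148.1 CPM in KO untreated replicate 4, Npc1 was at 132.7 CPM in the same sample, and Nr1h2 was at 69.55 CPM in WT untreated replicate 3.

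The LPS response differed between genotypes for 3 of the 10 genes by the interaction test, with log2 differences (KO response less WT response) of -0.36 for Mylip, -1.07 for Ch25h and -0.34 for Npc2, against 10.4% of all tested genes called. With replicate pairs summed none of the 3 was called (edgeR adjusted p = 0.288, 0.310 and 0.310).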

How the results depend on the processing

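Of 110 log2 values (10 genes, 11 comparisons), 95 to 106 kept their direction and their side of the threshold under each of DESeq2, its size factors, no filter, only the groups compared, the replicate block and summed pairs. Nr1h3 rested on 152 to 253 counts and Ch25h on 245 to 474 counts per WT untreated sample; the effect of depth was not tested. With DESeq2, members called lower with zymosan in KO went from 2 to 1, members higher in untreated KO from 1 to 2, members lower in the zymosan interaction from 0 to 1, and genes called there from 258 to 424. The first of these was also 1 with DESeq2 size factors, no filter, only the groups compared, summed pairs and replicates 1 and 2 alone. Members higher in KO with zymosan went from 1 to 0 without the filter, with only the groups compared, with summed pairs and with replicates 3 and 4 alone. With only the groups compared, members lower in KO with zymosan went from 2 to 1, members higher in KO with LPS from 0 to 1, and zymosan interaction genes to 154.

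Single replicate numbers showed little pairing across groups: deviations of same-numbered samples correlated by -0.115 to 0.247, over 0.1 in 12 of 60 pairs. The difference of replicates 3 and 4 from 1 and 2 was shared by some groups. Across genes, it correlated between groups by -0.11 to 0.419 (median 0.109, 15 pairs of groups), most between KO untreated and KO zymosan. The main fit had no term for it. With the replicate block, members higher in KO were 2 untreated and 1 with LPS, interaction members lower were 1 for zymosan and 6 for LPS, and interaction genes 506 and 2396. A term for the replicate pair gave 2, 1, 2 and 5 members and 588 and 2487 genes. With the block and with this term, adjusted p was 0.0381 and 0.0272 for the LPS interaction of Abca1, 0.0108 and 0.0119 for that of Abcg1, and 0.032 and 0.0401 for Abcg1 with LPS in KO. With pairs summed (2 per group), genes called fell from 6587 to 4259 (WT) and 6059 to 3551 (KO) between the stimuli, from 1411 to 418, 3134 to 964 and 4805 to 1987 for KO against WT, and from 258 to 0 and 1482 to 5 in the interactions. Members lower were then 1 with zymosan in WT, 2 between the stimuli in KO, 1 and 4 in KO with zymosan and LPS, and 0 for the LPS interaction, and members higher in untreated KO were 0. Replicates 1 and 2 alone gave 3 members higher and 2 lower in untreated KO (3251 genes), 3 and 5 with zymosan (4727 genes), and 3 and 6 interaction members lower (1206 and 2975 genes). Replicates 3 and 4 alone gave 2 members lower in untreated KO, 1 higher in KO with LPS, and 1 and 5 interaction members lower. Calls from a single pair do not include the spread between pairs.

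Leaving out single samples moved members higher in untreated KO (1 to 2), higher (0 to 2) and lower (1 to 3) in KO with zymosan, lower with zymosan in KO (1 to 2), lower between the stimuli in KO (2 to 5), and the zymosan interaction (0 to 1 members lower, 125 to 350 genes).

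Values that changed sign had not passed the test. With DESeq2 and its size factors, the Npc1 LPS interaction was -0.001, and with only the groups compared Nr1h2 in untreated KO was -0.001. With replicates 1 and 2 alone, the values were 0.032 (Apoe, WT zymosan against LPS), 0.066 and 0.021 (Abcg1 and Ch25h, untreated KO), 0.049 (Abca1, KO with zymosan) and -0.032 (Npc1, LPS interaction). With 3 and 4 alone they were -0.061 and 0.104 (Nr1h2 and Mylip, untreated KO), 0.018 (Npc2, KO with zymosan), -0.093 and -0.024 (Abca1, LPS in KO and KO against WT with LPS), and 0.110 and -0.013 (Apoe and Npc1, zymosan interaction). Leaving out single samples gave ranges across 0 for Abcg1 (-0.085 to 0.041 for zymosan in WT, -0.007 to 0.111 in KO, -0.091 to 0.047 for untreated KO, -0.002 to 0.104 for KO with zymosan), Nr1h2 and Mylip in untreated KO (-0.034 to 0.039, -0.084 to 0.016), Nr1h3 and Apoe in the zymosan interaction (-0.028 to 0.144, -0.091 to 0.033), Npc1 in the LPS interaction (-0.019 to 0.048) and Abca1 in KO with zymosan and LPS (-0.058 to 0.018, -0.024 to 0.034). The causes were not tested. Calls also lost were Apoe and Npc1 with zymosan in KO and Soat1 in KO with zymosan without the filter (adjusted p = 0.0714, 0.0541 and 0.0708), and, with only the groups compared, Apoe with zymosan in WT (0.0661), Npc1 with zymosan in KO (0.0592), and Ch25h and Soat1 in KO with zymosan (both 0.0706).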

Other observations

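The position of Apoe was looked at after its values were seen. Of 9 tested genes with any part within 100 kb of Apoe on chromosome 7 (Apoe included), 4 were called between genotypes untreated (2 lower in KO), 6 with zymosan (3 lower) and 4 with LPS (4 lower). Of all tested genes, 9.95%, 22.1% and 33.9% were called, and 5.64%, 11.4% and 18.2% were called lower. Apoe itself is among the lower genes in each condition. Apoc2, which lies 18168 bases away, had log2 differences of -0.40, -0.49 and -0.54, beside -0.45, -0.49 and -0.64 for Apoe. Its untreated call was lost with pairs summed (adjusted p = 0.0833). Tomm40, which lies 2125 bases away on the other side, had 0.03, 0.27 and 0.01, and Bcam, 56943 bases away, had 1.06, 1.03 and 0.33, of which the last did not pass the edgeR test. Nectin2, 17456 bases away, had 0.34, 0.17 and -0.10, of which the last did not pass either.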
